A study of Mus musculus with 2 samples.

Results

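The genes of the E proteins and of their ID inhibitors, 7 of 21938 protein-coding mouse genes, are described here by their chromatin accessibility in hippocampus. The members are the 3 E protein genes Tcf4, Tcf3 and Tcf12 and the 4 ID genes Id1, Id2, Id3 and Id4, a family chosen with results of these data known. Tcf4 was selected on its count of shared accessible regions away from starts, and the other members as relatives of it. The assay was DNase-seq: nuclei are treated with the enzyme DNase I, which cuts nucleosome-free DNA more readily, and the cut ends are sequenced. The tissue, which the labels call a layer of hippocampus, came from male B6CASTF1/J mice aged 10 days, first-generation hybrids of the strains C57BL/6J and CAST/EiJ. There was 1 group of 2 libraries, numbered 1 and 2 as biological replicates. The label of each names 3 males under a donor label common to both, the sources do not say whether the libraries share animals, and their spread may be technical.

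E proteins are basic helix-loop-helix transcription factors made in most tissues. They bind DNA at short sites called E-boxes, as dimers with themselves or with tissue-restricted partners such as NEUROD and ASCL proteins, which drive neuronal differentiation. ID proteins have the helix-loop-helix but lack the basic stretch that touches DNA, so that an E protein paired with an ID protein is held off its sites. ID genes are known targets of bone morphogenetic protein (BMP) signals carried by SMAD proteins. Loss of a copy of human TCF4 causes Pitt-Hopkins syndrome, a severe developmental disorder of the brain.

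The authors deposited a shorter and a longer list of accessible regions for each library, with a signal height per region. The shorter lists, used here unless stated, held 54546 regions in replicate 1 and 74278 in replicate 2, and the longer lists held 94187 and 131213. Shared regions, meaning those of replicate 1 with an overlap of at least 1 bp in replicate 2, numbered 48179. Heights in these pairs were higher in replicate 2 in 81.4%, with a median log2 ratio of replicate 2 over replicate 1 of 0.33. Where several regions of replicate 2 overlapped one of replicate 1, the tallest was taken, which can only raise these values. An open gene had a region no more than 1000 bp from an annotated start of its own. A region was called distal where it lay more than 1000 bp from every annotated start of every gene, and a locus is the body of a gene with 10 kb added at both ends. Markers of forebrain and hippocampus were open in both libraries in 9 of 9 genes, and pan-neuronal markers in 4 of 4. Open in both libraries were also 4 of 5 markers of the oligodendrocyte lineage, 1 of 4 of endothelium, 0 of 4 of microglia and 1 of 7 of midbrain and hindbrain. Of 4 astrocyte markers, 3 were open in replicate 1, 2 in replicate 2 and 1 in both, while by the longer lists all 4 were open in both. By the longer lists the counts in both were 2 for endothelium, 1 for microglia and 2 for midbrain and hindbrain. In bulk tissue, accessibility in fewer cells and lower accessibility per cell cannot be told apart.

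All 7 genes were open at a start in both libraries. Among all protein-coding genes, 59.6% were open in replicate 1, 64.0% in replicate 2 and 59.3% in both, and with the longer lists all 7 were again open, against 64.4% of all genes in both. The members differed in the height of their highest start region. Id2 stood highest, with 6.03 in replicate 1 and 5.77 in replicate 2, at the 91.5 and 85.2 percentile marks of the genes open in each library. Tcf3 followed with 3.68 and 4.87, Id4 with 4.05 and 4.32, and Id1 with 3.27 and 4.35. Tcf4 had 2.71 and 3.28, Tcf12 had 1.87 and 2.83, and Id3 had 2.34 and 2.1. The median over open genes was 2.59 in replicate 1 and 3.14 in replicate 2. Id2, Tcf3, Id4, Id1 and Tcf4 lay above it in both libraries, Tcf4 by little (at the 52.2 percentile mark in each). Id1 did so by a region upstream of its start, since the region over the start had 1.54 and 1.66. Tcf12 and Id3 lay below the median in both.

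As means, Id2 had 5.9 ± 0.183, Tcf3 4.27 ± 0.845, Id4 4.19 ± 0.189 and Id1 3.81 ± 0.763 (SD, n = 2 each). Tcf4 had a mean height of 2.99 ± 0.402, Tcf12 of 2.35 ± 0.676 and Id3 of 2.22 ± 0.166 (SD, n = 2 each). These spreads include the general shift between the libraries, so the order is safer within each. In both libraries Id2 was highest, Tcf3, Id4 and Id1 came next, Tcf4 followed, and Tcf12 and Id3 were lowest. Tcf3, Id4 and Id1 changed places among themselves between the libraries, as did Tcf12 and Id3. Across the libraries, the lower value of Id2 exceeded the higher value of Tcf3, while the range of each other gene overlapped that of its neighbour. No test was made, because the libraries form a single group.

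**Figure D1:**
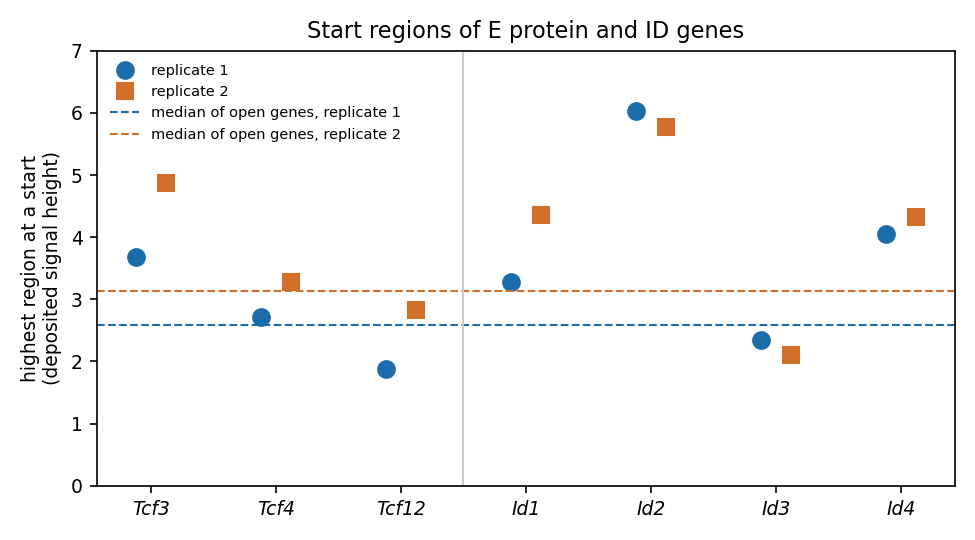
Height of the highest region at a start of each gene (vertical axis, deposited signal height) in replicate 1 (circles) and replicate 2 (squares), with E protein genes left and ID genes right of the line. Dashed lines give the medians over all open protein-coding genes, 2.59 and 3.14, and Id2 lies far above them while Id3 and Tcf12 lie below.

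Tcf4 (ENSMUSG00000053477.17, chr18:69343356-69689079, plus strand, mm10) is the longest member, with a body of 346 kb, 62 annotated transcripts and 58 starts, which fall into 14 groups of starts within 1000 bp of each other. Region heights were not even along these groups. At the outermost group the highest region had 2.71 in replicate 1 and 3.03 in replicate 2. At the group 249.6 kb further on, with 9 starts, it had 2.7 and 3.28. These alternative starts, far inside the body, thus had regions about as tall as the outermost ones. The group of 17 starts at 2.363 kb had lower regions, of 1.19 and 1.22.

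These 3 groups were the ones open in both libraries. In replicate 2 alone, the groups at 156.0 kb (1.19), 157.3 kb (1.23) and 339.0 kb (0.388) were open, and in replicate 1 alone the group at 176.1 kb (0.264). The longer list of replicate 1 added a region of 1.13 at 157.3 kb, so that group was open in both libraries by the longer lists. Of the 58 starts, 31 had a region within 1000 bp in both libraries, 36 in replicate 1 and 37 in replicate 2. The count follows how closely starts are packed, since 22 of them belong to the first 2 groups.

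Distal regions in the Tcf4 locus numbered 33 in replicate 1 and 53 in replicate 2, of which 26 of replicate 1 were shared, all of them in introns. At least 1 shared distal region was present in the locus of 44.1% of all protein-coding genes, with a mean of 0.922 and a median of 0 per gene. Tcf4 ranked 3rd by this count among the 21938 genes, which is how it came to be chosen, and 820th by density, at 7.11 per 100 kb. Among the 3185 genes with loci of at least 100 kb, whose median density was 0.921, it ranked 9th.

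The distal regions of Tcf4 fell into a low and a tall class, and the low ones were crowded into a short stretch of the gene. In replicate 1, 28 of the 33 regions had heights from 0.145 to 0.478, and all 28 lay between 20 and 55 kb from the outermost start. In replicate 2, 42 of the 53 had heights under 1, from 0.104 to 0.617, and 41 of them lay in the same zone. The limit of 1 was set after the heights were seen. All of these low regions lay at or below the 7.3 percentile mark of region heights in replicate 1 and the 23.7 mark in replicate 2, and 21 of the 26 shared distal regions of Tcf4 were among them.

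The zone was covered by regions over 18.4% of its length in replicate 1 and 32.4% in replicate 2. The limits of the zone were drawn around these regions after they were seen, so the next values describe it and add no independent evidence. By the deposited false discovery rates for raised cutting, which come from the same cuts, bases at a rate of 0.001 or lower made up 23.8% of the zone in replicate 1 and 44.6% in replicate 2, against 0.6% and 0.93% of the genome. Counting low distal regions (those in the lowest 10% of heights) in fixed windows of 50 kb, the Tcf4 window held 28 in replicate 1 and 36 in replicate 2 and ranked 3rd in each library. Such crowding was rare, with 24 windows of 10 or more in replicate 1 and 54 in replicate 2.

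The other 5 distal regions of replicate 1 were tall and shared, and replicate 2 had 11 of height 1 or more. The 5 tall shared regions lay deep in the body, between the outermost starts and the group of starts at 249.6 kb. The region at 174.1 kb, which lies 1914 bp from the nearest Tcf4 start, was the tallest of them, at 2.97 in replicate 1 and 3.93 in replicate 2. The region at 164.6 kb had 2.78 and 3.51. The region at 194.3 kb had 2.1 and 2.67. The remaining 2 had 1.89 and 2.21 at 227.9 kb, and 2.6 and 2.86 at 233.2 kb. All 5 were higher in replicate 2, as most shared regions of the genome were, and in both libraries they lay at or above the 74.7 percentile mark of heights. No region lay between 90 and 140 kb in the shorter lists. The longer lists had regions there at 103.2 kb (0.717) and 126.2 kb (0.553) in replicate 1 and at 100.3 kb (0.535) in replicate 2, none of them shared.

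The count of 26 was 14 where a shared region needed a reciprocal overlap of 50%, and 5 where equal numbers of regions were used. When only shared distal regions of height 1 or more were counted, Tcf4 had 5 and 145 genes had more. The 3rd rank of Tcf4 therefore rests on the low regions. Among the 110 genes with loci of at least 100 kb and 10 or more shared distal regions, the median height of these regions in Tcf4 (0.255 in replicate 1 and 0.333 in replicate 2) was the 2nd lowest in each library. The lowest was that of Phactr3, with 0.226 and 0.205, and the median over the 110 loci was 0.991 and 1.13.

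**Figure D2:**
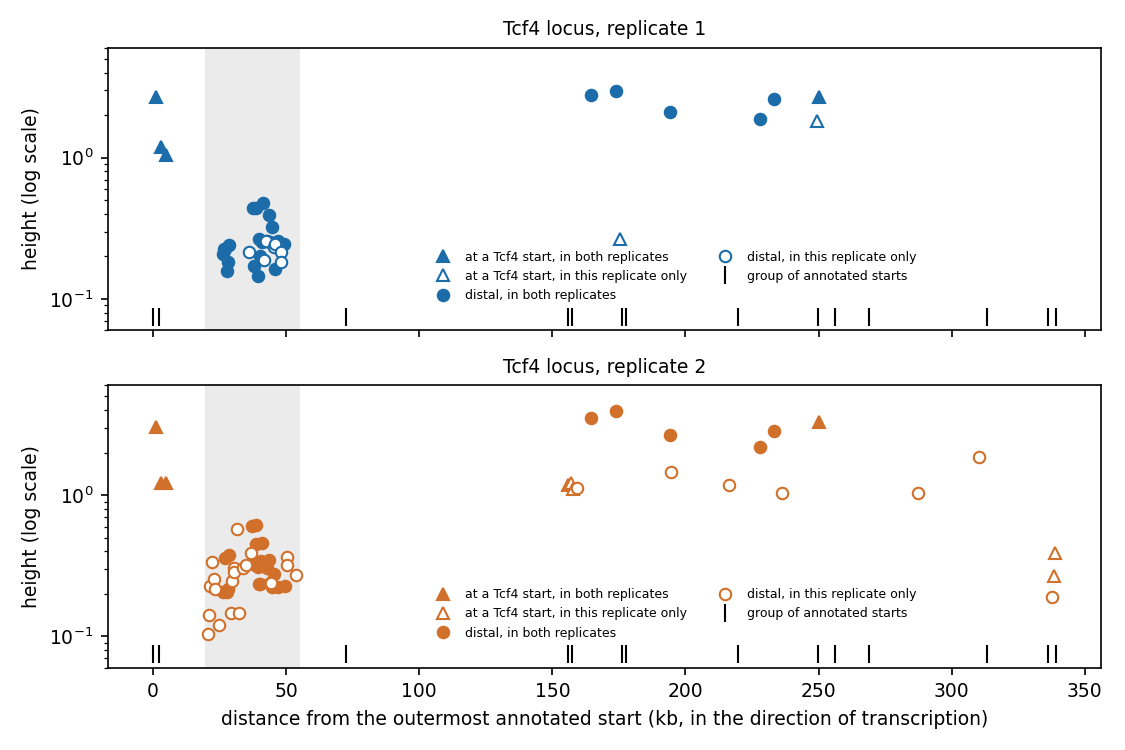
Height (log axis) of each accessible region in the Tcf4 locus against its distance from the outermost start, for replicate 1 above and replicate 2 below. Triangles are regions at a start and circles distal regions, filled where shared, and ticks mark the 14 groups of starts. The shaded zone from 20 to 55 kb holds 28 distal regions in replicate 1 and 41 in replicate 2, all lower than 1, and the tall shared distal regions lie between 164.6 and 233.2 kb.

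The low and tall regions also differed in footprints, which come from the same cuts as the heights. Footprints, short stretches inside regions that the authors list as shielded from cutting, numbered 47 in the Tcf4 regions of replicate 1 and 135 in those of replicate 2. In replicate 1 the low distal regions held 0.929 each and the tall ones 2.0, against 2.32 over all distal regions of the genome. In replicate 2 the low ones held 2.1 and the tall ones 2.82, against 2.5. Per kb of region, which allows for their greater width, the low regions held 4.04 footprints in replicate 1 and 6.93 in replicate 2, the tall ones 12.8 and 18.0, and all distal regions of the genome 13.2 and 13.3. By length, the low regions thus held fewer footprints than distal regions in general in both libraries. The distal regions in general were not matched to them for height, so these values add no independent evidence on the zone.

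The low regions had a GC content of 48.3% in replicate 1 and 47.1% in replicate 2. Over all distal regions under height 1 in the genome it was 51.9% and 52.1%, and over all bases of the zone 41.9%. The low regions were thus poorer in GC than distal regions under height 1 in general, but richer than their zone. Regions under height 1 made up 53.6% of all distal regions in replicate 1 and 57.9% in replicate 2. Many of them were taller than the low regions of Tcf4, so the sets were not matched for height. Bases that RefSeq masks as repeats made up 10.3% and 13.2% of the low regions. They made up 8.87% and 9.21% of all distal regions under height 1, and 18.4% of the zone as a whole. A CTCF site, bound by the protein that anchors chromatin loops, was matched in 2 of the 5 tall shared regions (at 164.6 and 194.3 kb) and in 0 of the 21 low ones. Over all shared distal regions of the genome the share was 11.5%. That share was not split by height, and with so few regions the counts cannot tell the low and tall classes apart. The part of base composition or repeats in the low heights was not tested.

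By a measure over distal counts and start heights in both libraries (Euclidean distance of 4 log2 values among the 2645 genes with loci of at least 100 kb open in both), the genes most like Tcf4 were Nav2 (0.915), Gse1 (0.948) and Nfib (0.998). Nav2 had 23 and 31 distal regions, Gse1 19 and 40, and Nfib 23 and 30, in replicates 1 and 2. Heights of distal regions did not enter the measure, so it does not show likeness to Tcf4 in its low regions.

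Tcf3 (ENSMUSG00000020167.14, chr10:80409514-80433647, minus strand), which encodes the E2A proteins needed for B cell development, was open at the outermost of its 4 groups of starts alone. Replicate 1 listed 2 regions there that overlap each other, of 3.48 and 3.68, and replicate 2 listed 3, of 0.819, 4.87 and 3.53. Tcf3 thus had start regions above the median height in both libraries. A single distal region was shared in its locus, at 20.26 kb from the outermost start over an annotated exon of the gene, with 3.25 in replicate 1 and 2.98 in replicate 2. Its flank also holds the starts of 2 other genes, Mbd3 (6.36 and 6.77) and Uqcr11 (3.29 and 3.44), both with tall regions.

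Tcf12 (ENSMUSG00000032228.16, chr9:71842688-72111871, minus strand) encodes the E protein known as HEB. Its body of 269 kb comes close to that of Tcf4 in length, but its locus held 2 shared distal regions, or 0.692 per 100 kb, against 26 and 7.11 per 100 kb in Tcf4. Of those 26, 21 lay in the low zone and 5 were tall. Of its 5 groups of starts, the outermost alone was open in the shorter lists. Its regions had 1.87, 0.723 and 0.585 in replicate 1 and 2.83, 1.47 and 0.847 in replicate 2. About 0.732% of the bases of the Tcf12 locus in replicate 1 and 0.781% in replicate 2 had a false discovery rate up to 0.001, close to the genome's 0.6% and 0.93%.

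The 2 shared distal regions of Tcf12 lie in introns. The one at 151.9 kb had 0.641 in replicate 1 and 0.661 in replicate 2, and the one at 135.6 kb had 0.723 and 0.961. Both were below the median region height. They are printed because E-boxes, the kind of site that E proteins bind, recur in them. The sequences are from RefSeq (GRCm38, the build of mm10), in the direction of Tcf12, with E-boxes (CANNTG) in capitals, 3 in the first and 4 in the second.
Tcf12 intron, 151.9 kb, chr9:71959823-71960037, minus strand: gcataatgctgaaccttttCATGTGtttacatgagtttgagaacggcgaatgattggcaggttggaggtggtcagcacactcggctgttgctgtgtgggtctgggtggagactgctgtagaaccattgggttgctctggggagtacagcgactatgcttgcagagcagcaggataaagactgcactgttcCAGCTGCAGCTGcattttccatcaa
Tcf12 intron, 135.6 kb, chr9:71976141-71976360, minus strand: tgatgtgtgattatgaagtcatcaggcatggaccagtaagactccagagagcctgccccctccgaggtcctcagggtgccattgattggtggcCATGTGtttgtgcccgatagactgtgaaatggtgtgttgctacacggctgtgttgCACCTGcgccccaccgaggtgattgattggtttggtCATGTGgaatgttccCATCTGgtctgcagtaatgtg
The first ends in adjoining copies of CAGCTG, and the second holds CATCTG, the reverse complement of CAGATG, an E-box bound by NEUROD proteins. E-boxes are short and common, present in 62.5% of all shared regions. Of the E-boxes in these 2 regions, 0 lay wholly inside a footprint in replicate 1, and in replicate 2 it was 1, in the region at 151.9 kb. The start regions of Tcf12 held 0 E-boxes in replicate 1 and at most 1 each in replicate 2. The share of all regions with 3 or more E-boxes is not given here, and binding was not tested.

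The ID genes are short, with bodies from 1.16 kb (Id1) to 4.8 kb (Id4), and their loci held 7 shared distal regions in all. Id3 had 13.5 per 100 kb (rank 102 among all genes) and Id2 12.9 (rank 129), both denser than Tcf4. In these short loci that amounts to 3 regions each. Id1 had 1 and Id4 had 0. With 50 kb on each side, Id4 had 2 shared distal regions, Id2 still 3, Id3 7 and Id1 9.

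Id1 (ENSMUSG00000042745.9, chr2:152736251-152737410, plus strand) had its tallest region not over its start but upstream, centred at -1.05 kb and just within the 1000 bp limit. That region had 3.27 in replicate 1 and 4.35 in replicate 2. The region over the start itself had 1.54 and 1.66. The upstream region was therefore higher than the start region in both libraries. A distal region at 6.379 kb, behind the gene, had 1.24 and 1.69, and a further one of 0.945 was listed in replicate 2 only. The longer list of replicate 1 held a region overlapping that one, of 0.641.

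Id2 (ENSMUSG00000020644.9, chr12:25093799-25097140, minus strand), the member with the tallest start region, has starts in 2 groups 1.048 kb apart, and the region of 6.03 and 5.77 lay at the inner one. It overlapped the RefSeq promoter of the gene (chr12:25096043-25096342). Distal regions flank the gene on both sides. The one at 4.699 kb, behind the gene, had 3.62 in replicate 1 and 4.39 in replicate 2. Upstream, the region at -1.78 kb had 2.34 and 3.0, and the one at -3.925 kb had 1.3 and 1.42. The Id2 locus differed strongly between the libraries, with 4 regions in replicate 1 and 13 in replicate 2, the additional ones of heights from 0.481 to 1.08. Bases with a false discovery rate up to 0.001 made up 8.21% of it in replicate 1 and 25.7% in replicate 2.

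Id3 (ENSMUSG00000007872.3, chr4:136143497-136145755, plus strand), the member with the lowest mean start height, had shared upstream distal regions about as tall as its start region. The shared distal region behind the gene was lower. The start region had 2.34 in replicate 1 and 2.1 in replicate 2. The distal region centred at -8.246 kb had 2.49 and 2.14, the one at -3.006 kb had 1.98 and 2.35, and the one at 4.394 kb had 1.43 and 1.6. A small nuclear RNA gene, Gm26001, lies in the upstream flank, with a region at its start in replicate 2 alone (0.874). The longer list of replicate 1 held a region there as well (0.767).

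Id4 (ENSMUSG00000021379.2, chr13:48261228-48266026, plus strand) had a region just before its start, of 4.05 and 4.32, and one over its exon, of 0.717 and 1.07, joined in replicate 2 by another of 0.858. It had no distal region in either library, also by the longer lists. The antisense gene A330033J07Rik and the long noncoding gene Gm49291, both on the minus strand, begin within the body of Id4, so the regions here cannot be assigned to Id4 alone. The start of another noncoding gene, A330048O09Rik, lay behind Id4 with a region of 1.02 and 1.62.

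**Figure D3:**
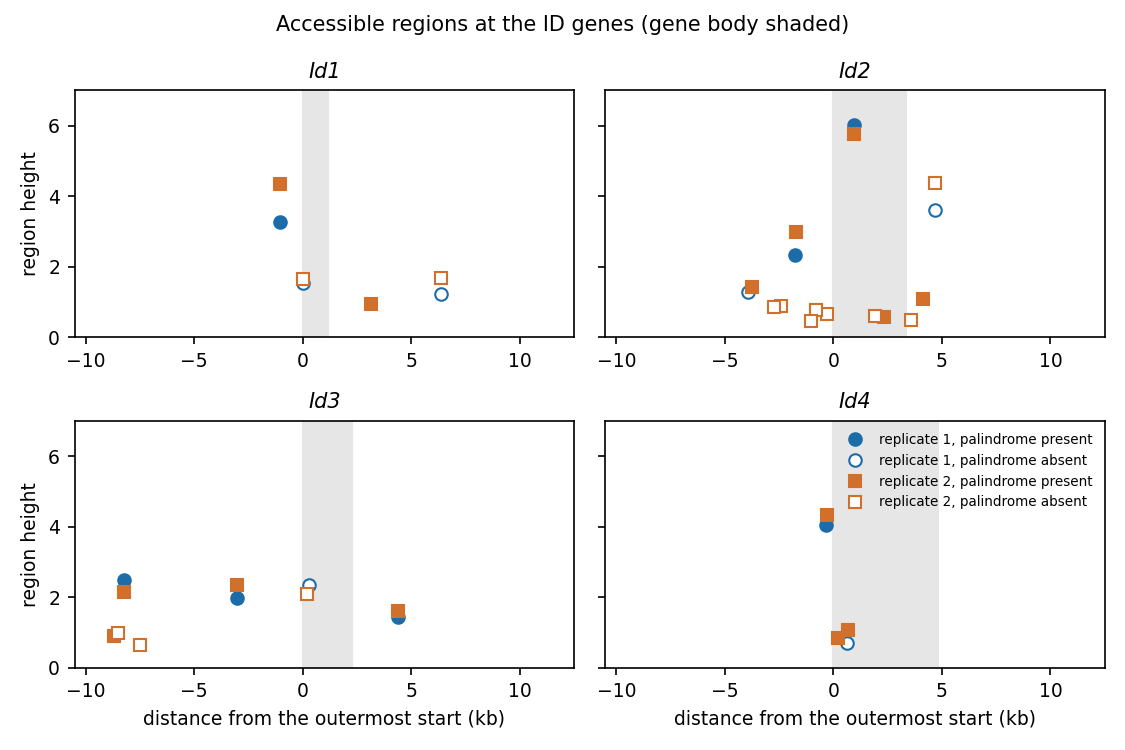
Height of each accessible region at the 4 ID genes against its distance from the outermost start (gene bodies shaded), for replicate 1 (circles) and replicate 2 (squares), without regions at the starts of other genes. Filled symbols hold the palindrome GGCGCC, as do 7 of 13 regions in replicate 1 and 14 of 27 in replicate 2.

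The palindrome GGCGCC, a site known from BMP-responsive elements of Id1, recurred in the regions of the ID loci. Of the 13 ID regions of replicate 1, all shared, 7 held it, that is 53.8%, against 12.9% of all shared regions, 20.9% of those at starts and 6.59% of distal ones. All 4 genes had at least 1 such region, and the matches lay in the upstream region of Id1, the start region and the -1.78 kb region of Id2, all 3 distal regions of Id3 and the region before the start of Id4. In replicate 2 it was present in 14 of 27 ID regions, or 51.9%, against 12.1% of all regions of that library, 22.2% of those at starts and 5.6% of distal ones. No such match was found in the 26 shared distal regions of Tcf4. The palindrome was not confined to the ID genes, however. In replicate 1 it was also present in the outermost start region of Tcf4 (61.7% GC) and in a start region of Tcf3 (54.7% GC). Start regions of Tcf4 and Tcf3 held it in replicate 2 as well.

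The ID regions were rich in G and C, at 65.5% against 58.5% over all shared regions, and wider, with a median of 271 bp against 200 bp. Within regions of 60 to 70% GC, 5 of 8 ID regions held the palindrome, against 20.6% of all. Above that, 2 of 2 held it, against 37.4%. Between 50 and 60% GC, 0 of 3 held it, against 7.02%. The grouping by GC was added after the data were seen.

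Of the 7 regions, 5 are printed to let the place of the palindrome be seen beside the E-boxes, which lie close by in some. All are from RefSeq (GRCm38) in the direction of the gene, and capitals mark GGCGCC and E-boxes. The start region of Id2, which overlaps an exon, and the 420 bp region of Id3 at 4.394 kb, which holds 3 matches, are not printed.
Id1 upstream region, chr2:152735101-152735300, plus strand: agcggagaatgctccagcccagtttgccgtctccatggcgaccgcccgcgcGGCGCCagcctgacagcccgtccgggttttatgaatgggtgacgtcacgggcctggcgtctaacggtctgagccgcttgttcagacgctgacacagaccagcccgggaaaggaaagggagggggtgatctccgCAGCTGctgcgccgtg
Id2 region at -1.78 kb, chr12:25098781-25099060, minus strand: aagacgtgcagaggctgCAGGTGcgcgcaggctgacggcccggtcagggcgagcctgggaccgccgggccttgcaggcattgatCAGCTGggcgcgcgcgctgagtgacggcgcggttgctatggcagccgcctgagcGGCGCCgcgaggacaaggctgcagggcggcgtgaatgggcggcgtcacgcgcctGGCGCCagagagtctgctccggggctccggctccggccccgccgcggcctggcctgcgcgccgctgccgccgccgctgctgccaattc
Id3 region at -8.246 kb, chr4:136135121-136135380, plus strand: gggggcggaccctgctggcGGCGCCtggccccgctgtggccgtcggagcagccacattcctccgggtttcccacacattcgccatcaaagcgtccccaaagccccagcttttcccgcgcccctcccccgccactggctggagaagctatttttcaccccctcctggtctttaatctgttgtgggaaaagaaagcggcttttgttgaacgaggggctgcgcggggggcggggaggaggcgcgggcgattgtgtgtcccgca
Id3 region at -3.006 kb, chr4:136140381-136140600, plus strand: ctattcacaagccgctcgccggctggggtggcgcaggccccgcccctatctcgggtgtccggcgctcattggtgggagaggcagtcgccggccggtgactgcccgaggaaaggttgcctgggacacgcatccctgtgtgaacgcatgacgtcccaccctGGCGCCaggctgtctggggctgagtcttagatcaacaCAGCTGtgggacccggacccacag
Id4 region before the start, chr13:48260761-48261020, plus strand: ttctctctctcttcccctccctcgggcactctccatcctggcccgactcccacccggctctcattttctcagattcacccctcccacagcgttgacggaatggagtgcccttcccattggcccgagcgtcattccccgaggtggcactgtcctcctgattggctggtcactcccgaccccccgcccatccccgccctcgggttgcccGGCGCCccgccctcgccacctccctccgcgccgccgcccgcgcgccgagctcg
The animals carry a CAST/EiJ chromosome as well, whose bases are not shown by this reference. In the Id2 region the palindrome occurs 2 times, and in the Id1, Id2 and the second Id3 region it stands in the same region as the E-box CAGCTG. That E-box was present in 6 of the 13 ID regions (46.2%), against 16.9% of all shared regions. Its share was lower over the 27 ID regions of replicate 2. Of the other E-boxes searched, CACCTG lay in the Id2 region at -1.78 kb and the Id3 region at 4.394 kb alone. CAGATG lay in none of the 13. The Id1 region also holds the cAMP response element TGACGTCA, in lower case, the single match among the member regions, against 1.43% of all shared regions.

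Over all 50 shared regions at the 7 genes, other than those at starts of other genes, an E-box of any kind was present in 66.0%, against 62.5% of all shared regions. Distal regions of Tcf4 were 26 of the 50, and 21 of those lay in its low zone. The shares here thus rest largely on that 1 locus. CAGATG was present in 8.0%, against 16.3%, and CACCTG in 14.0%, against 15.1%. The low share of CAGATG did not recur over all member regions of replicate 2, 18.4% of which held it, against 18.2% of all its regions. Both are also counted as CANNTG, and all motifs were searched on both strands. The SMAD element GTCTAGAC, the EGR site GCGTGGGCG and the full nuclear factor I site were found in 0 of the 50, against 0.154%, 0.577% and 0.108% of all shared regions.

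**Figure D4:**
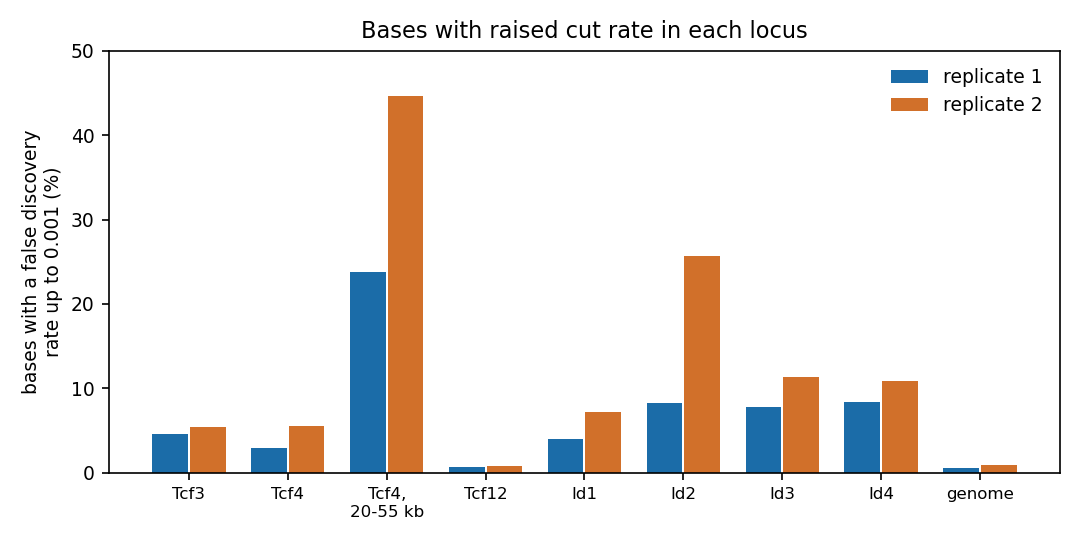
Percentage of bases with a deposited false discovery rate up to 0.001 in each locus (body with 10 kb added at both ends), in the Tcf4 zone from 20 to 55 kb and in the genome, for replicate 1 (left bars) and replicate 2 (right bars). The Tcf4 zone reaches 23.8% and 44.6%, the Id2 locus differs most between the libraries in this share among the 7 loci, and Tcf12 stays near the genome.

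Tissue-restricted partners of the E proteins were given by a list of 35 genes. Of these 35 partner genes, 12 were open in both libraries (34.3%, against 59.3% of all genes), 6 in replicate 2 only and 17 in neither. The tallest start regions were those of Neurod2 (2.11 in replicate 1 and 2.43 in replicate 2), Neurod6 (2.08 and 1.86) and Neurod1 (1.28 and 1.88), which encode factors of neuronal differentiation. All 3 stayed below the median over open genes in both libraries. Open in replicate 2 only were, among others, Atoh1 (0.421) and Atoh7 (1.51), known from hindbrain and retina, the cortical progenitor gene Neurog2 (0.787), the tendon gene Scx (0.798) and Tal2 (0.47). Genes open in neither included Bhlhe23, Ferd3l, the heart genes Hand1 and Hand2 and the muscle gene Myf5. With the longer lists 18 of the 35 were open in both.

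Genes of the BMP-SMAD pathway, which acts upstream of the ID genes, were open in both libraries in 19 of 25 cases (76.0%, against 59.3% of all genes). The tallest start regions were those of Smad4 (5.62 and 6.2), the common partner of the signalling SMADs, Bambi (4.7 and 6.74), a decoy receptor, and Smad1 (3.97 and 5.22), a SMAD activated by BMP receptors. The ligand gene Bmp4 (0.699) and the genes of the secreted antagonists follistatin, Fst (0.645), and gremlin, Grem1 (0.754), were open in replicate 2 only. Open in neither were Acvrl1 and Eng, a receptor and a co-receptor best known from endothelium, and the ligand gene Bmp5. An open start does not show that a gene is transcribed, and RNA was not analysed here.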

How the data were processed

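DNase-seq regions, footprints and false discovery rates came from 2 libraries of 1 group. The deposited region lists hold a signal height per region, which is the authors' value. The deposited notes name no caller (not given in the sources used here), nor its threshold, the scaling or the sequencing depth, so no depth-based interval is printed. The authors derived regions from filtered alignments of each library separately, on mm10 per the labels. False discovery rates per base (adjusted p-values by the authors, as deposited) are listed up to 0.05, and the deposited footprints carry a constant p-value of 0.01, read as a limit. Regions that overlap each other in a list were kept as listed.

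Genes and starts were from GENCODE M21, on chromosomes 1 to 19, X and Y, whose lengths were checked against GRCm38 (21 chromosomes, 0 region ends outside). Footprints were counted where wholly inside a region. The Tcf4 totals count each footprint 1 time, while values per region or per kb count a footprint in every region that holds it, also where regions overlap. Sequences were read from RefSeq GRCm38. RefSeq promoter windows were held for 5 of the 7 members. Python 3.11.15, pandas 2.3.3, numpy 2.4.6 and pysam 0.24.0 were used. The gene counts were tested on simulated data with planted regions. With 1 group there is no comparison of conditions, and all values are descriptions without tests.

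The members and the lists of partners, pathway genes and markers were chosen with earlier results of these data known. Named are all members, and of each list of partner and pathway genes the 3 with the tallest mean start region, up to 5 open in 1 library and up to 5 open in neither, in alphabetical order. Alternatives covered the longer lists, the stronger 50% of regions, equal numbers of regions, reciprocal overlap of 50%, start distances of 500 and 2500 bp, basic transcripts, other flanks, the central 100 bp and each library alone. Those on region height, the zone in Tcf4 and GC content were added after seeing the data.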

Additional observations from a re-analysis of the deposited data

How the results depend on the processing

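Of 85 alternative values, 65 stayed within the spread between libraries or within 1.5 times the main count, and 20 did not. All 7 members had a start region in both libraries under every alternative run. The count of shared distal regions in the Tcf4 locus, 26, was 5 with the stronger 50% of regions, 5 with equal numbers of regions and 14 with a reciprocal overlap of 50%. It was also 5 with regions of height 1 or more and 5 without the zone from 20 to 55 kb, both added after seeing the data. On 1 library sharing does not apply, and all its distal regions numbered 33 in replicate 1 and 53 in replicate 2. The density, 7.11 per 100 kb, was 1.37 with the stronger 50% of regions and with equal numbers. By their construction these 2 settings remove low regions. Over all distal regions of 1 library, shared or not, the density was between 9.02 and 14.5. Starts of Tcf4 with a region in both libraries, 31, numbered 20 within 500 bp and 14 of the 22 starts of basic transcripts, against 31 of all 58. The other 6 members, with 10 shared distal regions, had 21 with the longer lists, 3 in gene bodies and 32 with 50 kb on each side. All their distal regions on 1 library, shared or not, numbered 10 to 19. Footprints in Tcf4 regions, a mean of 91.0, lay between 47 and 135. The share of regions with CAGATG, 8.0%, was 0% in the central 100 bp. Shorter stretches hold fewer matches in any set, so that 0% is not read as a depletion. On 1 library, over its shared and unshared member regions, the share was 10.0 to 18.4%. All regions gave 16.1% in replicate 1 and 18.2% in replicate 2, so the lower share was not seen in replicate 2. The highest start region averaged 1.6 in Id1 within 500 bp, which leaves out its upstream region, and 3.45 in Tcf4 within 2500 bp. No paired analysis was possible because there is 1 group.

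The 2 libraries differ in the number of regions, the depth behind each height is not given, and low regions depend on the list used. Heights are not comparable between libraries without the median ratio. Motif shares over 13 ID regions move by 7.69 percentage points with each region. Assignment of a region to a gene rests on distance alone.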
